A study of Homo sapiens with 12 samples.

Results

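The nuclear-encoded subunits of respiratory complexes II to V and cytochrome c were followed in HEK293T cells, an established human line from embryonic kidney that carries SV40 large T antigen, after bafilomycin A1 (BafA1) with and without added iron. The 44 genes were taken by symbol from a table of 56337 gene entries. They were SDHA, SDHB, SDHC, SDHD, CYC1, CYCS and every symbol beginning with UQCR, COX4 to COX8 or ATP5, and 147 entries matched. Of these, 95 were dropped because the symbol ends in P plus digits, as pseudogenes do, and 1 (ATP5MF-PTCD1, a readthrough entry) because of its hyphen. A further 7 were dropped for a mean under 1 FPKM (fragments scaled to transcript length and to the fragments of the library) over the 12 libraries. The 44 comprised 4 genes of complex II, 10 of complex III, 1 of cytochrome c, 11 of complex IV and 18 of complex V, and all 44 were among the 13682 genes tested.

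The libraries form 4 groups of 3, all from wild-type HEK293T cells kept in RPMI medium. Every group had a preincubation of 24 h and then a treatment period of 24 h. The BafA1 group received 10 nM BafA1 for the 24 h of treatment without added iron, and the control group received neither agent. The FAC+BafA1 group received ferric ammonium citrate (FAC, an iron salt) at 0.1 mg/ml for 24 h before the 24 h with 10 nM BafA1, and the FAC group received FAC alone. Replicates are numbered in the labels without word of separate cultures, and the p-values cover only the spread between these libraries, which may be technical. The labels name no clone, and each treatment was given at 1 dose and 1 time.

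Complexes II, III and IV pass electrons from succinate and ubiquinol through cytochrome c to oxygen, and complexes III and IV pump protons across the inner mitochondrial membrane. Complex V, the ATP synthase, lets the protons flow back through a ring of c subunits and uses the turning of its central shaft to make ATP. It is distinct from the V-ATPase of lysosomes, which spends ATP to pump protons and which BafA1 blocks. Iron is part of several subunits: SDHB and UQCRFS1 hold iron-sulfur clusters, and SDHC with SDHD, CYC1 and cytochrome c hold heme. Apart from complex II, these complexes also hold subunits encoded in mitochondrial DNA. In bulk RNA, fewer cells with a transcript and less transcript per cell cannot be told apart.

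After BafA1 without FAC, 42 of the 44 genes were called lower than in control, where 37.6% of all tested genes were, and 0 higher, where 29.5% were, and the median log2 change was -0.54, against -0.04 over all 13682 tested genes. With FAC present, BafA1 left 20 of the 44 lower, where 9.49% of all tested genes were, and 0 higher, where 9.76% were. The median was then -0.12, and -0.05 with quantile normalization, against 0.00 over all tested genes. The difference between these changes was called above 0 for 39 of the 44, where 29.5% of all tested genes were. FAC alone moved 0 of the 44 past the threshold, where 4.72% of all tested genes were higher and 4.84% lower. The largest decrease was in ATP5MC1, a gene of the c ring, and SDHA, the catalytic subunit of complex II, was not called in any of the 6 comparisons when all 12 libraries were fitted together.

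The stretches of genome just before 6 of the genes are shown here because they belong to the c-ring gene that fell most and to genes of complexes II and IV that moved to different degrees. They come from RefSeq, build GRCh38.p14, which held a promoter for 33 of the 44 genes. ATP5F1B, ATP5F1D, ATP5MC3, ATP5MD, ATP5MF, ATP5MPL, COX6C, CYC1, SDHC, UQCRB and UQCRHL had no entry. Each stretch runs 5′ to 3′ on the strand of its gene, and capitals mark a match, on either strand, to TGCGCA (core of the NRF1 motif) or to CCGGAAG (core of the ETS motif bound by GABP, which reads CTTCCGG on the other strand). NRF1 and GABP are activators known to bind many respiratory chain promoters. ATP5MC1 lies at chr17:48892615-48892764 on the plus strand, SDHA at chr5:218153-218302 on the plus strand, SDHB at chr1:17054033-17054182 on the minus strand, SDHD at chr11:112086674-112086823 on the plus strand, COX5B at chr2:97645912-97646061 on the plus strand and COX6B1 at chr19:35648173-35648322 on the plus strand.
ATP5MC1: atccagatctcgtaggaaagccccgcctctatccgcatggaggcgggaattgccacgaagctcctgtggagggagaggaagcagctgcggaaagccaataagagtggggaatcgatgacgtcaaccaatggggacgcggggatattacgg
SDHA: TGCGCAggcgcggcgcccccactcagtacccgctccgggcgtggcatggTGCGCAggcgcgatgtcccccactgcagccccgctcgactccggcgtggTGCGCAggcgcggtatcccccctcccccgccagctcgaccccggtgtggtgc
SDHB: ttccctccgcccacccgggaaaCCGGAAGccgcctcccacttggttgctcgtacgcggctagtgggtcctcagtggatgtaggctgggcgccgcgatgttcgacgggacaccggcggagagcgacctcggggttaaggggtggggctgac
SDHD: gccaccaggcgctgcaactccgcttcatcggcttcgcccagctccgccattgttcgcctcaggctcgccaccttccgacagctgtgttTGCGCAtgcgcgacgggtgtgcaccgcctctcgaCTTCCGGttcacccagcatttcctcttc
COX5B: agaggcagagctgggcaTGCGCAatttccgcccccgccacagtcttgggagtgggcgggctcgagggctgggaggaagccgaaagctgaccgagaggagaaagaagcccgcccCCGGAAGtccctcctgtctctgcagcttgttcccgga
COX6B1: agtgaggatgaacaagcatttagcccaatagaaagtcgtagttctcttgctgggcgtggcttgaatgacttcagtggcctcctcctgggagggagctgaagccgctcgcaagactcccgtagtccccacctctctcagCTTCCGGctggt

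Over the full windows of 300 bases, both strands searched, TGCGCA was found in 9 of the 33 promoters, a share of 27.3%, against 8.42% of all 27305 promoters of the table and 14.3% of the 9750 that belong to tested genes. CCGGAAG was found in 14 of the 33, or 42.4%, against 10.7% of all promoters and 20.3% of those of tested genes. AAGATGG, the core of the motif of YY1, was found in 9 of the 33, or 27.3%, against 6.06% of all promoters and 7.83% of those of tested genes. CCGGAAG and AAGATGG share the letters AAG, and 0 matches to different motifs overlapped in the 33 windows. SDHA, which was not called after BafA1, had 3 copies of TGCGCA in its stretch and more over its whole window. ATP5MC1, which fell most, had a match to none of the motifs in its whole window. The other genes with TGCGCA were ATP5ME, COX5B, COX6A1, COX7C, SDHB, SDHD, UQCR11 and UQCRC1. All were called lower after BafA1 without FAC, as were 42 of the 44 subunit genes and 37.6% of all tested genes. With quantile normalization COX6A1 changed by 0.09 (limma adjusted p = 0.0139). A link between motif and change was not tested. A match is a description of these letters and not evidence of binding.

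Depth is not stated in the table, and an estimate from the steps between low FPKM values gave 30800000 to 34600000 fragments a library. It is approximate: the fit to whole fragments, as a mean cosine that is 1 when perfect, was 0.588 to 0.638 with FAC. Without FAC the fit was weaker, at 0.304 to 0.337. Across genes, replicates of a group correlated at 0.993 to 0.995 on the log2 scale. Of 7 markers known from HEK293 cells, 6 had a median of 1 FPKM or more over the libraries, and PAX2 ran from 0.22 to 1.36 FPKM with a median of 0.59. Their summed level was 889.7 to 895.9 FPKM in BafA1, 491.5 to 498.4 in control, 721.8 to 727.0 in FAC+BafA1 and 476.8 to 489.9 in FAC. Most of this sum was VIM alone, which ran from 331.8 to 713.5 FPKM over the libraries. Among 11 markers of other cell types, no list summed to more than 7.78 FPKM in any library (fibroblast), with at most 1.75 FPKM for blood, 0.45 FPKM for hepatocytes and 0.12 FPKM for keratinocytes, and HBB was at 0. Libraries with and without FAC were filled differently for 627 entries, each empty in all 6 libraries of one kind and at or above 1 FPKM in the opposite 6, and 0 of the 44 genes were among them. Comparisons across FAC set libraries filled in different ways against each other. The part of these differences in the changes of the subunit genes was not tested.

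The 44 genes were strongly expressed. In control cells their mean FPKM ranged from 7.48 for UQCRHL, an intronless copy of UQCRH, to 844 for ATP5F1B, the catalytic beta subunit of the ATP synthase, with a median of 304.9, against 11.9 over all tested genes. FPKM is scaled to length, so these levels were set side by side. The canonical transcripts ran from 276 bases in UQCRHL to 8459 in UQCRB, and how well the scaling holds for the shortest was not tested. By complex the median control level was 169.6 FPKM in complex II, 182.3 in complex III, 359.2 in complex IV and 331.9 in complex V, and CYCS was at 364.9. Level and change were nearly unrelated over the 44 genes, with a Spearman's rho of -0.075 between control level and change after BafA1, a description over genes that share libraries. Tissue isoforms were near 0: COX4I2 (lung), COX6A2 (heart and muscle) and COX7B2 were listed at 0 in every library, and COX6B2 (testis), COX7A1 (heart and muscle) and COX8C averaged 0.198, 0.0075 and 0.0692 FPKM. ATP5MGL averaged 0.0133 FPKM.

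Summed over the 44 genes, the level was 8861 ± 140 FPKM in BafA1, against 13191 ± 495 FPKM in control, and 12173 ± 154 FPKM in FAC+BafA1, against 13151 ± 70.6 FPKM in FAC (SD, n = 3 each). As a share of all FPKM this was 1.47 ± 0.0201% in BafA1, against 2.04 ± 0.0565% in control, and 1.91 ± 0.0195% in FAC+BafA1, against 2.03 ± 0.00846% in FAC. For complex V the sum was 3934 ± 58.9 FPKM in BafA1, against 6251 ± 253 FPKM in control, and 5611 ± 74.0 FPKM in FAC+BafA1, against 6194 ± 46.8 FPKM in FAC. On each of these measures the BafA1 libraries lay below those of the other 3 groups.

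**Figure D1:**
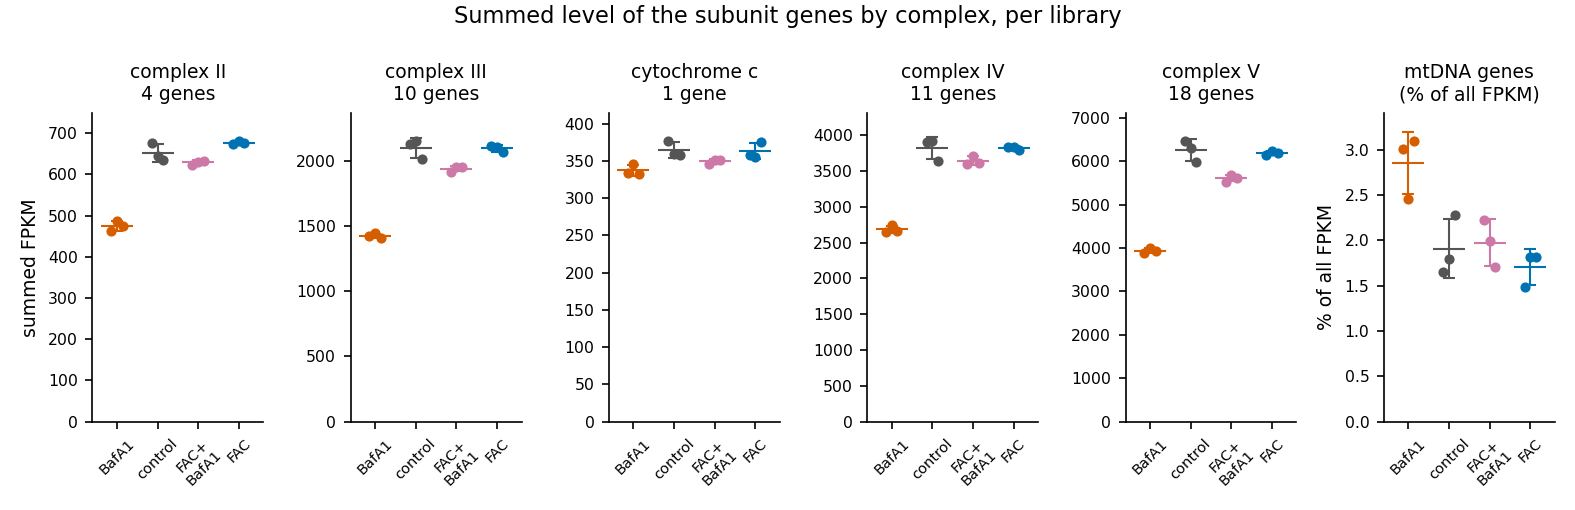
Summed FPKM of the subunit genes of each complex (first 5 panels) and the share of all FPKM held by mitochondrially encoded genes in percent (last panel), for BafA1, control, FAC+BafA1 and FAC from left to right. Points are libraries, and lines with bars are means with SD over 3 libraries; the complex V sum was 3934 FPKM in BafA1, against 6251 in control, while the mitochondrial share was 2.85% in BafA1, against 1.91% in control.

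The comparison of BafA1 with control asked what blocking lysosomal acidification does to these transcripts without added iron. By limma with Benjamini-Hochberg adjustment over all 13682 genes, 42 of the 44 were called lower, where 37.6% of all tested genes were, and 0 were called higher, where 29.5% were. At an unadjusted p under 0.05 the counts were also 42 lower and 0 higher, against 5329 and 4194 of all 13682 tested genes. In 43 of the 44, every BafA1 library lay below every control library, which held for 38.3% of all tested genes. All 18 genes of complex V, all 10 of complex III, 10 of 11 of complex IV, 3 of 4 of complex II and CYCS were called lower. The counts of genes called higher were 1 with median-of-ratios scaling and 3 with quantile normalization, as given with the genes concerned.

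**Figure D2:**
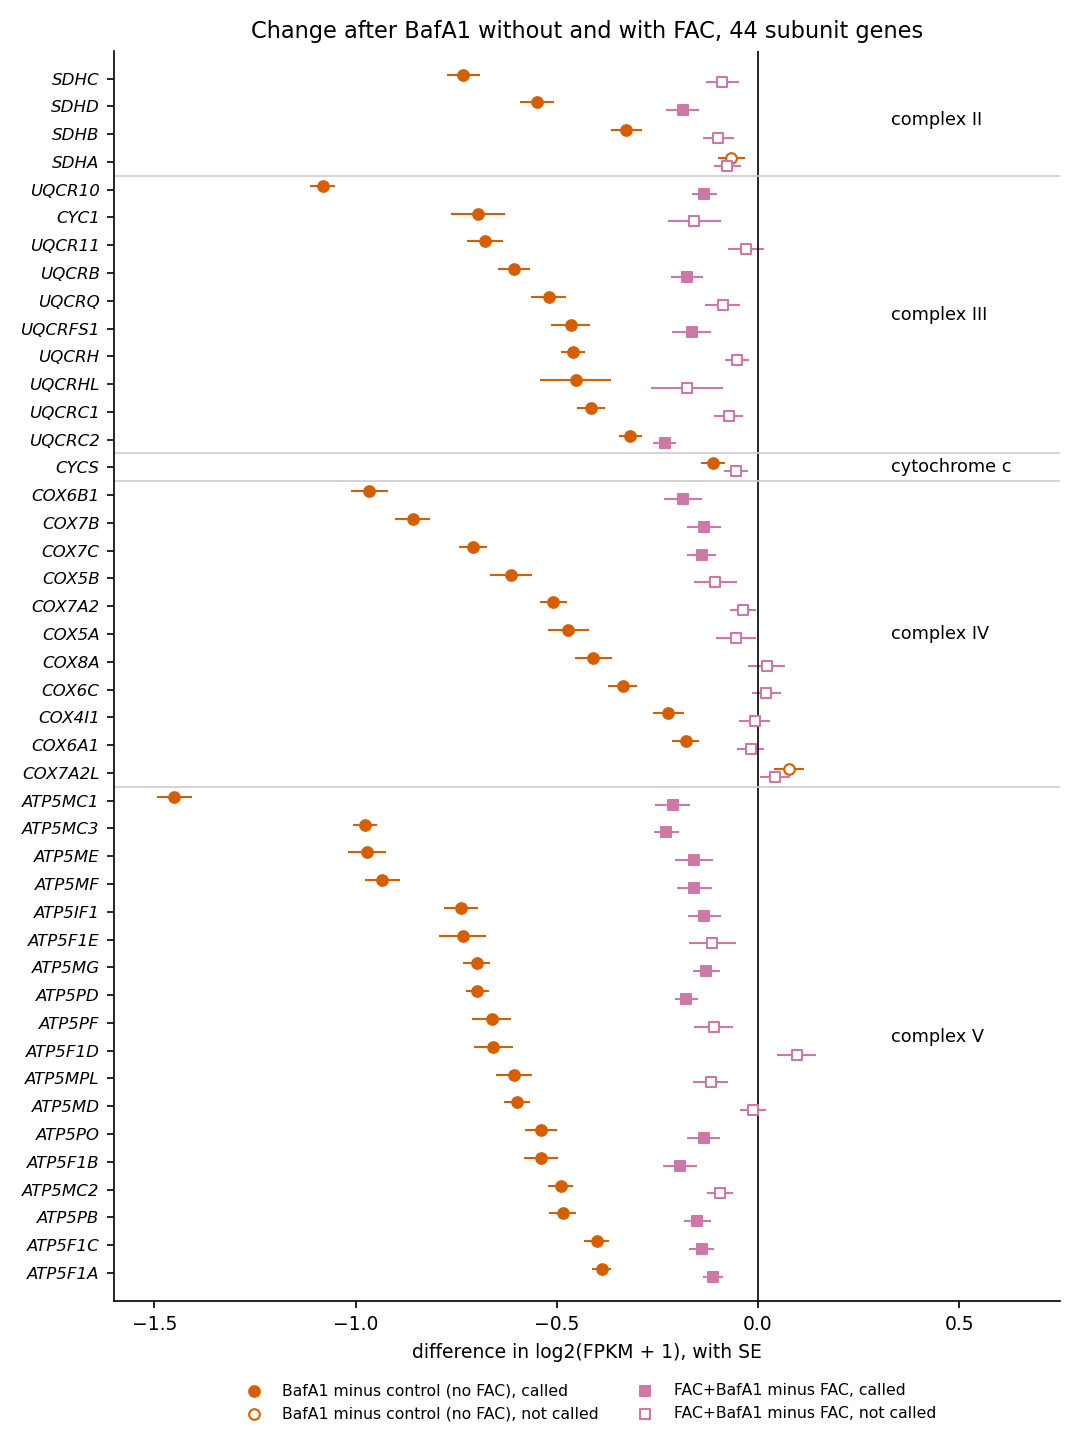
Difference in log2(FPKM + 1) of each of the 44 genes, with limma standard errors, for BafA1 minus control (circles) and FAC+BafA1 minus FAC (squares), ordered by complex. Filled symbols passed an adjusted p of 0.05 and open ones did not; ATP5MC1 stands at -1.45 without FAC and -0.21 with FAC, and SDHA and COX7A2L are open in both.

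Complex II oxidises succinate, and 3 of its 4 genes were called lower. SDHA, which carries the flavin, had 81.4, 82.8 and 79.8 FPKM in BafA1, against 85.9, 83.8 and 85.7 FPKM in control. Its BafA1 libraries lay below its control libraries, but the change of -0.07 ± 0.03 was not called (limma adjusted p = 0.11), except when only these groups were fitted (adjusted p = 0.0359). SDHC, a membrane anchor, had 129.8, 140.4 and 138.1 FPKM in BafA1, against 234.8, 223.3 and 222.1 FPKM in control, a change of -0.73 ± 0.04 (limma adjusted p = 1.40e-08). The other anchor, SDHD, fell by 0.55 ± 0.04 (adjusted p = 2.21e-07), and SDHB, the iron-sulfur subunit, fell by 0.33 ± 0.04 (adjusted p = 9.96e-06). Each of these 3 genes had its BafA1 libraries below all control libraries. SDHA has pseudogene entries whose FPKM summed to 16.2% of its own, and one of them, SDHAP4, was at 0 to 0.2 FPKM in the libraries without FAC and at 6.27 to 7.15 FPKM in those with FAC, so the assignment of SDHA reads is uncertain.

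Complex III carries electrons from ubiquinol to cytochrome c, and all 10 of its genes fell, with a median of -0.49. UQCR10, a small subunit, had 83.8, 86.0 and 87.2 FPKM in BafA1, against 178.8, 189.3 and 179.4 FPKM in control, a change of -1.08 ± 0.03 (limma adjusted p = 6.14e-11). No BafA1 library reached 50% of a control library, and the mean fell by 53.0%, an effect exceeded among the 44 genes only by ATP5MC1. CYC1, which holds the heme of cytochrome c1, had 88.9, 79.9 and 81.2 FPKM in BafA1, against 135.4, 137.0 and 133.9 FPKM in control, and fell by 0.70 ± 0.07. UQCRFS1, the Rieske iron-sulfur protein, had 25.1, 26.8 and 26.1 FPKM in BafA1, against 37.4, 37.7 and 33.9 FPKM in control, and fell by 0.47 ± 0.05. These groups did not overlap for either gene. The small subunits UQCR11 and UQCRB fell by 0.68 ± 0.04 and 0.61 ± 0.04, and UQCRQ and the hinge protein UQCRH by 0.52 ± 0.04 and 0.46 ± 0.03. The core proteins UQCRC1 and UQCRC2, which face the matrix, fell by 0.41 ± 0.04 and 0.32 ± 0.03. UQCRHL fell by 0.45 ± 0.09, but its reads may be shared with UQCRH, from which it was copied.

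Cytochrome c, the mobile carrier that also starts apoptosis when released, had a small change. CYCS had 333.6, 346.3 and 333.2 FPKM in BafA1, against 376.8, 359.1 and 358.7 FPKM in control, and its groups did not overlap. Its change was -0.11 ± 0.03 (limma adjusted p = 0.00515), was not called under median-of-ratios scaling (-0.04, adjusted p = 0.35) and turned to 0.13 with quantile normalization (adjusted p = 0.000705), so no direction is given for it.

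Complex IV reduces oxygen, and its nuclear-encoded subunits surround a mitochondrially encoded core. COX6B1, which faces the intermembrane space where cytochrome c docks, had 194.0, 195.0 and 181.7 FPKM in BafA1, against 372.6, 393.4 and 352.3 FPKM in control, a change of -0.97 ± 0.05 (limma adjusted p = 4.02e-09). COX7B had 152.7, 161.1 and 160.7 FPKM in BafA1, against 285.3, 301.5 and 276.1 FPKM in control, a change of -0.86 ± 0.04. Every BafA1 library was below every control library for both. COX7C, at 840 FPKM in control the most abundant of complex IV, fell by 0.71 ± 0.04, and COX5B, a zinc-binding subunit, by 0.61 ± 0.05. COX7A2, COX5A, COX8A and COX6C fell by 0.51, 0.47, 0.41 and 0.34. COX4I1, a regulatory subunit, and COX6A1 fell by 0.22 ± 0.04 and 0.18 ± 0.03, but with quantile normalization these changes turned to 0.04 (adjusted p = 0.37) and 0.09 (adjusted p = 0.0139). COX7A2L, which joins complexes III and IV into supercomplexes, had 91.2, 95.1 and 90.7 FPKM in BafA1, against 92.3, 86.0 and 84.4 FPKM in control. Those groups overlapped and its change of 0.08 ± 0.04 was not called (limma adjusted p = 0.0853), though it was called higher under median-of-ratios scaling (adjusted p = 0.00627), under quantile normalization (adjusted p = 0.00185) and without control replicate 1 (adjusted p = 0.0127).

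All 18 genes of complex V fell, with a median of -0.66, against -0.49 in complex III and -0.47 in complex IV, and the c ring held the gene that fell most. ATP5MC1, ATP5MC2 and ATP5MC3 encode precursors that differ in their import sequences and give the same mature c subunit. ATP5MC1 had 92.7, 92.7 and 90.6 FPKM in BafA1, against 254.0, 264.7 and 240.9 FPKM in control, a change of -1.45 ± 0.04 (limma adjusted p = 8.10e-11). ATP5MC3 had 217.1, 216.5 and 209.1 FPKM in BafA1, against 435.5, 425.5 and 406.5 FPKM in control, a change of -0.98 ± 0.03 (adjusted p = 1.09e-10). ATP5MC2 had 276.9, 282.3 and 276.0 FPKM in BafA1, against 393.3, 394.7 and 386.5 FPKM in control, a change of -0.49 ± 0.03 (adjusted p = 5.57e-08). The groups did not overlap for any of the 3, and the mean of ATP5MC1 fell by 63.7%, that of ATP5MC3 fell by 49.3% and that of ATP5MC2 fell by 28.9%.

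The 5 subunits of the F1 head, which holds the catalytic sites and the central shaft, all fell. The alpha, beta and gamma subunits ATP5F1A, ATP5F1B and ATP5F1C fell by 0.39 ± 0.02, 0.54 ± 0.04 and 0.40 ± 0.03, and the small shaft subunits ATP5F1D and ATP5F1E by 0.66 ± 0.05 and 0.73 ± 0.06. The peripheral stalk holds the head still against the turning ring. Its genes ATP5PB, ATP5PO, ATP5PF and ATP5PD fell by 0.49 ± 0.03, 0.54 ± 0.04, 0.66 ± 0.05 and 0.70 ± 0.03. Of the membrane subunits that help the synthase form dimers, ATP5ME had 181.6, 177.3 and 168.5 FPKM in BafA1, against 357.7, 346.2 and 332.8 FPKM in control, a change of -0.97 ± 0.05. ATP5MF fell by 0.93 ± 0.04 and ATP5MG by 0.70 ± 0.03, and the small proteins ATP5MPL and ATP5MD fell by 0.61 ± 0.04 and 0.60 ± 0.03. ATP5IF1, the inhibitor that stops the synthase from running backwards and burning ATP, fell by 0.74 ± 0.04, to 194.5 ± 5.63 FPKM in BafA1, against 325.4 ± 21.7 FPKM in control.

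**Figure D3:**
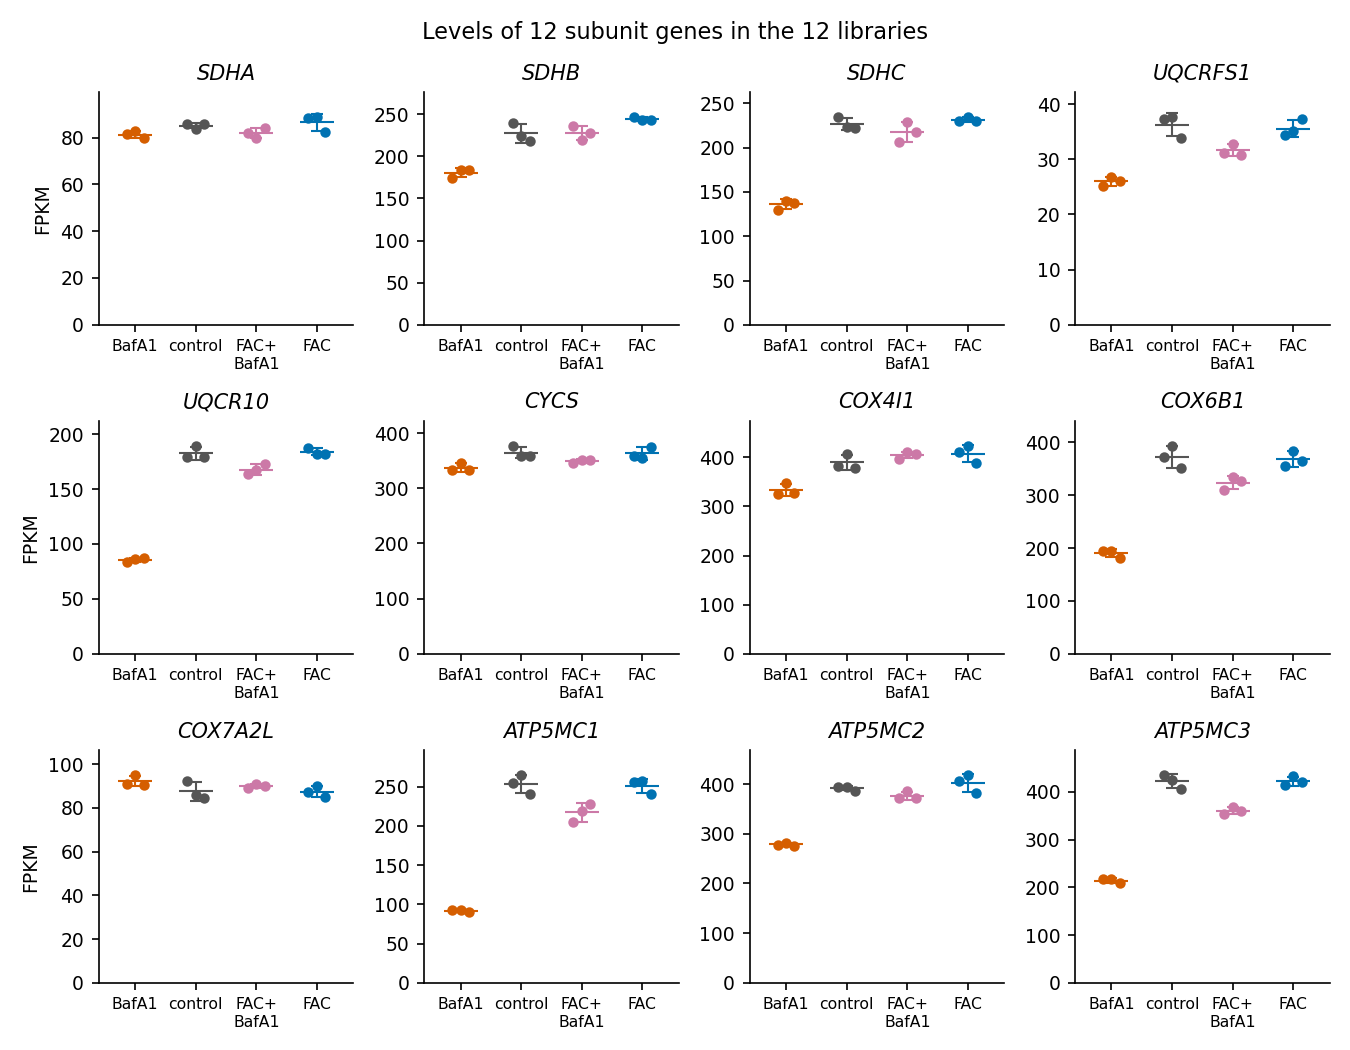
FPKM of 12 subunit genes in each library, for BafA1, control, FAC+BafA1 and FAC from left to right; points are libraries, and lines with bars are means with SD over 3 libraries, on axes that start at 0. ATP5MC1, ATP5MC3, UQCR10, COX6B1 and SDHC stand lowest in BafA1, and SDHA and COX7A2L stay within a narrow band in all 4 groups.

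The changes of the genes whose product carries iron lay inside the range of the others. SDHC, CYC1, SDHD, UQCRFS1, SDHB and CYCS changed by -0.73, -0.70, -0.55, -0.47, -0.33 and -0.11, whereas the 38 remaining genes ran from -1.45 in ATP5MC1 to 0.08 in COX7A2L. The subunit genes are short: their canonical transcripts had a median length of 1005 bases, against 2952 over the 13655 tested genes with a length. Of the 1964 tested genes of 1000 bases or less, 38.6% were called lower and 13.2% higher. The part of transcript length in the changes was not tested.

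BafA1 in cells that had received FAC asked how far the same treatment acts when iron is supplied. FAC+BafA1 was lower than FAC for 20 of the 44 genes, where 9.49% of all tested genes were, and higher for 0, where 9.76% were. At an unadjusted p under 0.05 the limma counts were 26 lower and 0 higher, against 2220 and 2258 of all 13682 tested genes. Every FAC+BafA1 library lay below every FAC library for 27 of the 44, which held for 18.1% of all tested genes. The 20 comprised 12 genes of complex V, 4 of complex III, 3 of complex IV and SDHD. The count depended on the fit: it was 9 with quantile normalization, 11 without the minimum on FPKM, 12 without the intensity trend, 13 without FAC replicate 1, 12 without FAC replicate 2 and 10 without FAC+BafA1 replicate 1. The share of all tested genes called was not taken under these fits.

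The decreases that passed the test were small. UQCRC2 led with 154.6, 152.3 and 145.2 FPKM in FAC+BafA1, against 175.2, 178.4 and 177.8 FPKM in FAC, a change of -0.23 ± 0.03 (limma adjusted p = 0.000158). ATP5MC3 had 354.3, 368.1 and 359.2 FPKM in FAC+BafA1, against 414.5, 432.9 and 419.7 FPKM in FAC, a change of -0.23 ± 0.03 (adjusted p = 0.000367). ATP5MC1 had 204.5, 219.0 and 227.3 FPKM in FAC+BafA1, against 256.0, 256.7 and 240.9 FPKM in FAC, a change of -0.21 ± 0.04 (adjusted p = 0.00581). In each of these the groups did not overlap. ATP5F1B, ATP5PD, UQCRB and SDHD fell by 0.19, 0.18, 0.18 and 0.19, and UQCRFS1 and UQCR10 by 0.17 and 0.13. The call was lost with quantile normalization for UQCRB (adjusted p = 0.0709) and UQCR10 (adjusted p = 0.0973), for UQCR10 also without FAC+BafA1 replicate 1, and for UQCRFS1 under 7 alternatives, 4 of which leave out 1 library. COX6B1, COX7C and COX7B fell by 0.19, 0.14 and 0.13, with limma adjusted p = 0.0159, 0.0179 and 0.047, and each of these calls was lost under some alternatives. ATP5MC2 at -0.09, CYC1 at -0.16, SDHC at -0.09, SDHB at -0.10, SDHA at -0.08 and CYCS at -0.05 were not called. Without FAC replicate 3, calls were gained by ATP5MC2 (-0.13, limma adjusted p = 0.00908), CYC1 (-0.23, adjusted p = 0.0252) and SDHA (-0.11, adjusted p = 0.0351). ATP5MC2 was also called with a replicate block (adjusted p = 0.038), and CYC1 without FAC+BafA1 replicate 3 (adjusted p = 0.0499).

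Whether the BafA1 change differed with FAC was tested as an interaction, the change with FAC minus the change without. It was called above 0 for 39 of the 44, where 29.5% of all tested genes were, and below 0 for 0, where 20.6% were. At an unadjusted p under 0.05 the limma counts were 40 above and 0 below, against 4493 and 3181 of all 13682 tested genes. The share of all calls above 0 was 58.9% here, 48.6% with median-of-ratios scaling and 52.7% with quantile normalization. The interaction was 1.24 ± 0.06 for ATP5MC1, 0.95 ± 0.04 for UQCR10, 0.81 ± 0.07 for ATP5ME, 0.78 ± 0.07 for COX6B1 and 0.75 ± 0.04 for ATP5MC3. It was 0.64 ± 0.06 for SDHC, 0.36 ± 0.06 for SDHD, 0.23 ± 0.05 for SDHB, 0.54 ± 0.09 for CYC1 and 0.30 ± 0.07 for UQCRFS1. SDHA, COX7A2L, CYCS, UQCRHL and UQCRC2 were not called, with -0.01, -0.03, 0.06, 0.28 and 0.08. COX4I1 and COX6A1, at 0.21 and 0.16, lost the call with median-of-ratios scaling (limma adjusted p = 0.0721 and 0.189) and with quantile normalization, where COX6A1 turned to -0.06. UQCRHL was called without control replicate 3 and UQCRC2 without FAC+BafA1 replicate 3.

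For the 42 genes called lower without FAC, the change with FAC divided by the change without had a median of 0.178, and ran from -0.147 in ATP5F1D to 0.732 in UQCRC2. ATP5F1D had 83.5, 83.7 and 82.0 FPKM in FAC+BafA1, against 82.9, 75.8 and 74.4 FPKM in FAC, although its mean fell by 37.1% in BafA1 relative to control. UQCRC2, a core protein of complex III, thus kept the largest part of its decrease, and its interaction of 0.08 ± 0.04 was not called (limma adjusted p = 0.0913). ATP5MC1, with the largest decrease, had a ratio of 0.146, and UQCR11 had 0.0444.

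**Figure D4:**
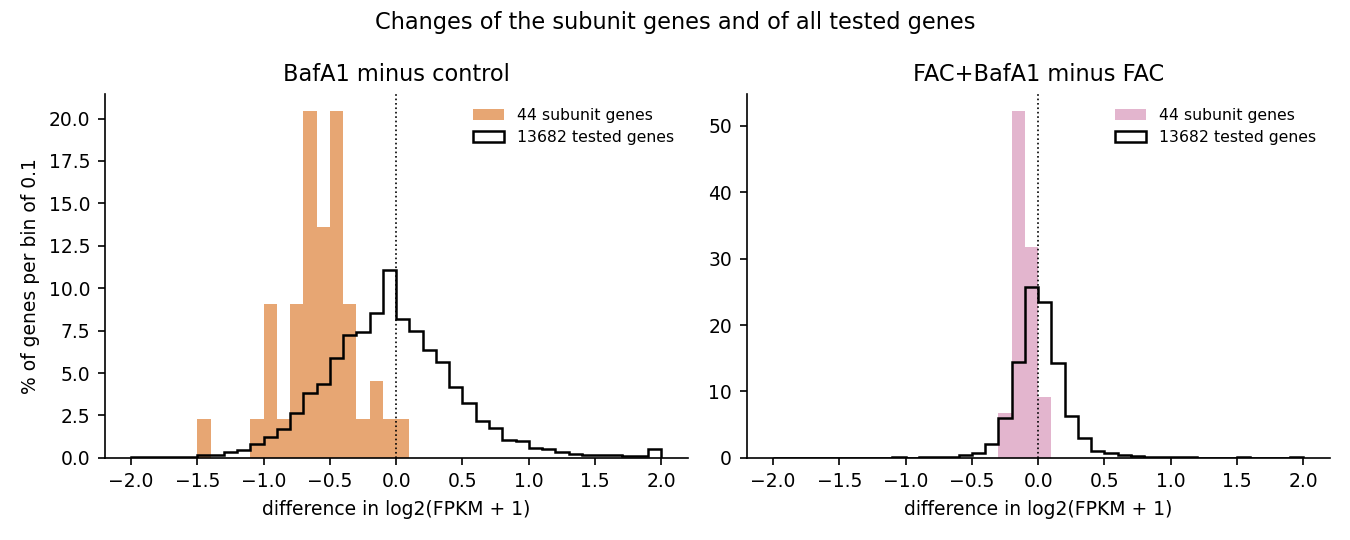
Distribution of the difference in log2(FPKM + 1) for the 44 subunit genes (filled) and all 13682 tested genes (line), as the percent of genes in each bin of 0.1, for BafA1 minus control (left) and FAC+BafA1 minus FAC (right). Values of tested genes beyond 2 in either direction are drawn in the end bins; the median of the 44 was -0.54 on the left, against -0.04 over all tested genes, and -0.12 on the right, against 0.00.

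The remaining comparisons set libraries with FAC against libraries without, and they share samples with those above. FAC with control called 0 of the 44 higher, where 4.72% of all tested genes were, and 0 lower, where 4.84% were. At an unadjusted p under 0.05 by limma, SDHB was higher and ATP5F1D lower, against 1089 and 1168 of all 13682 tested genes. The median change of the 44 was -0.01. SDHB had 246.8, 242.9 and 242.9 FPKM in FAC, against 239.6, 223.9 and 217.9 FPKM in control, and was the 1 gene whose FAC libraries all lay above control, which held for 9.88% of all tested genes. Its change was 0.11 ± 0.04 (limma adjusted p = 0.156), and it was called without control replicate 1 (0.14, adjusted p = 0.0261).

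FAC+BafA1 was higher than BafA1 for 41 of the 44, where 38.8% of all tested genes were, and lower for 0, where 29.1% were. At an unadjusted p under 0.05 the limma counts were also 41 and 0, against 5491 and 4161 of all 13682 tested genes. All libraries of FAC+BafA1 lay above those of BafA1 in 41 genes, which held for 40.4% of all tested genes. ATP5MC1 was higher by 1.23 ± 0.04, UQCR10 by 0.96 ± 0.03, SDHC by 0.67 ± 0.04, and SDHA, COX7A2L and CYCS were not called. FAC+BafA1 was lower than control for 21 of the 44, where 16.6% of all tested genes were, and higher for 0, where 16.2% were. At an unadjusted p under 0.05 the limma counts were 24 lower and 0 higher, against 2906 and 2824 of all 13682 tested genes. In 25 genes every FAC+BafA1 library lay below every control library, which held for 23.3% of all tested genes. With quantile normalization 14 were called lower and 1 higher. ATP5MC3, UQCRB and ATP5MC1 fell by 0.23, 0.23 and 0.22 relative to control, and COX4I1 and SDHB, at 0.06 and 0.01, were not called. In this comparison 23 of the 44 were not called, a p that misses the threshold being no evidence of equal levels.

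Of the 6 mitochondrially encoded partners in complexes III to V, 3 were called higher after BafA1 without FAC, where 29.5% of all tested genes were, and 0 lower, where 37.6% were. MT-CO2, a core subunit of complex IV, had 2997, 2560 and 3142 FPKM in BafA1, against 1565, 1717 and 2236 FPKM in control, a change of 0.67 ± 0.14 (limma adjusted p = 0.000854). MT-CYB, the cytochrome b of complex III, changed by 0.57 ± 0.15 (adjusted p = 0.00547) and MT-CO3 of complex IV by 0.34 ± 0.13 (adjusted p = 0.0397). MT-CO1, MT-ATP6 and MT-ATP8 were at 0.30, 0.39 and 0.27 and were not called. The median of the 6 was 0.36, against -0.54 for the 44 nuclear-encoded genes. The 6 were all called higher with median-of-ratios scaling and with quantile normalization, but only 2 of them without the minimum on FPKM, without the intensity trend, with a replicate block or with these groups fitted alone. Single libraries decided the count as well: 6 were called without control replicate 3 or BafA1 replicate 2, and 2 without control replicate 1 or 2, BafA1 replicate 1 or 3, or FAC+BafA1 replicate 2. With FAC present, 0 of the 6 were called after BafA1, with values from 0.02 for MT-CO1 to 0.34 for MT-CYB. The interaction was called below 0 for 1 of the 6, where 20.6% of all tested genes were, and above 0 for 0, where 29.5% were. The 1 became 0 with a pseudocount of 0.1, without the minimum on FPKM, without the intensity trend and with a replicate block. Over all genes whose symbol begins with MT-, and not only these 6, the summed level varied more between replicates than over the 44 nuclear-encoded genes. Their share of all FPKM was 2.85 ± 0.346% in BafA1, against 1.91 ± 0.326% in control (SD, n = 3). It was 1.97 ± 0.260% in FAC+BafA1, against 1.70 ± 0.194% in FAC. Whether this share takes part in the decrease of the nuclear-encoded genes was not tested.

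Assembly factors build these complexes and insert their cofactors, and 36 of the 37 in the list were tested; SCO2 was not used here. After BafA1 without FAC, 24 were called lower, where 37.6% of all tested genes were, and 3 higher, where 29.5% were, with a median of -0.29. COA3, which binds newly made COX1 during assembly of complex IV, had 37.9, 39.7 and 35.9 FPKM in BafA1, against 86.1, 88.6 and 80.5 FPKM in control, a change of -1.15 ± 0.05 (limma adjusted p = 7.98e-10). COX16, which takes part in assembling the copper site of complex IV, fell by 0.83 ± 0.06. COX19, a copper-handling factor, and TTC19, a factor of complex III, were higher by 0.37 ± 0.09 and 0.36 ± 0.03, and the third, LRPPRC, which stabilises mitochondrial mRNAs, was higher by 0.27 ± 0.05. After BafA1 with FAC, 10 of the 36 were called lower, where 9.49% of all tested genes were, and 1 (TTC19) higher, where 9.76% were. The 10 became 6 without FAC replicate 1, FAC replicate 2 or FAC+BafA1 replicate 1, and the 1 became 0 under both scalings, with a replicate block, and without FAC replicate 1 or any single FAC+BafA1 library. The interaction was called above 0 for 18 of the 36, where 29.5% of all tested genes were, and below 0 for 4, where 20.6% were. The 18 became 15 with median-of-ratios scaling and 20 without BafA1 replicate 1.

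Among 9 regulators of these genes, 8 were tested and PPARGC1A was under the minimum. After BafA1 without FAC, 4 were called higher, where 29.5% of all tested genes were, and 1 lower, where 37.6% were. The 4 became 3 without the intensity trend, with these groups fitted alone, and without control replicate 3 or BafA1 replicate 1. The 1 became 2 with quantile normalization, with these groups fitted alone, and without BafA1 replicate 1 or FAC replicate 2, and 0 with a minimum of 5 FPKM. PPRC1, a coactivator of the PGC-1 family, had 42.6, 39.9 and 39.5 FPKM in BafA1, against 26.8, 28.8 and 30.0 FPKM in control, a change of 0.50 ± 0.05 (limma adjusted p = 1.66e-06). GABPB1, a subunit of GABP, was higher by 0.32 ± 0.04, TFAM by 0.13 ± 0.03 and YY1 by 0.09 ± 0.03, and PPARGC1B, another PGC-1 coactivator, fell by 0.58 ± 0.06. NRF1 and GABPA, at -0.13 and 0.00, were not called. After BafA1 with FAC, 0 of the 8 were called by limma in either direction. The interaction was called above 0 for 2 of the 8, where 29.5% of all tested genes were, and below 0 for 3, where 20.6% were. With a minimum of 5 FPKM these counts were 1 above and 4 below.

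Reads of some subunit genes may be shared with copies or neighbours. Pseudogene entries exist for 32 of the 44 genes, and 7 such entries had a mean of 1 FPKM or more. They summed to over 5% of the gene for 4: SDHA (16.2%), COX6A1 (8.92%), COX7C (5.56%) and ATP5F1E (5.53%). COX7CP1 had 36.3, 26.3 and 26.9 FPKM in BafA1, against 47.0, 44.5 and 47.2 FPKM in control. In GENCODE release 44, exons of 11 of the 44 overlap another gene at 1 FPKM or more, and for ATP5PB, ATP5PF and COX4I1 that gene (WDR77, GABPA and EMC8, on the opposite strand) exceeded 10% of their level. The overlap covered 2.87% of the exon bases of ATP5PB, 34.4% of those of ATP5PF and only 0.0831% of those of COX4I1. MYL5, on the opposite strand at a mean of 5.36 FPKM, overlapped 61.3% of the exon bases of ATP5ME. Whether counting used the strand is not given in the sources used here, so such reads may not be told apart.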

How the data were processed

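Per the labels' protocols, HEK293T RNA was made into libraries with a stranded kit for mRNA. The deposited values are FPKM per gene, 12 columns, with STAR, RSEM and GRCh38 named in the submitters' processing notes. The sources used here give no versions, annotation release, filters or use of strand. Of 56340 entries, 3 repeated an ID with 0 throughout and were dropped, and 13 symbols made of digits were replaced by ID.

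Values were taken as log2(FPKM + 1), which understates changes of low genes, for 13682 genes whose mean reached 1 FPKM. The 4 groups were fitted together with limma 3.58.1 in R 4.3.3, with an intensity trend, for 6 comparisons. P-values were adjusted by Benjamini-Hochberg over all genes tested, with calls at 0.05. Log2 errors are limma standard errors and FPKM errors are SDs. The fit was tested on simulated data. The members, lists and tests were chosen with earlier results of these data known. Genes named were all SDH genes, UQCRFS1, CYC1, CYCS and the c-ring genes, and per complex the 4 largest decreases and 2 largest increases called; others are named to account for every gene. Alternatives were median-of-ratios scaling, quantile normalization, a pseudocount of 0.1, a minimum of 5 FPKM or none, no trend, a replicate block, separate fits and leaving out each library. The shares of all tested genes called come from the joint fit and were not taken under the alternatives. Positions and overlaps came from GENCODE 44 on GRCh38, promoters from RefSeq on GRCh38.p14.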

Additional observations from a re-analysis of the deposited data

Results flagged for a closer look

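The change after BafA1 differed with FAC, by the test of the difference itself (limma interaction, adjusted over all genes tested), for 13 genes that the naming rule took. The rule took ATP5ME, COX6B1, COX7B, UQCR10 and UQCR11 because they were called with large interactions, so their calls add no support. SDHA and CYCS, which the rule also took, were not called. Of all 44 genes 39 were called above 0, where 29.5% of all tested genes were. In each of the 13, FAC+BafA1 was nearer to FAC than BafA1 was to control. The interaction in log2 units was largest in ATP5MC1 at 1.24, followed by UQCR10 at 0.95, ATP5ME at 0.81, COX6B1 at 0.78, ATP5MC3 at 0.75 and COX7B at 0.73. It was 0.65 in UQCR11, 0.64 in SDHC and 0.54 in CYC1. It was lower in ATP5MC2 at 0.40, SDHD at 0.36, UQCRFS1 at 0.30 and SDHB at 0.23. The call for SDHB was lost with quantile normalization, where its interaction was 0.11 (adjusted p = 0.121). Comparisons of outlying libraries within a group were not made, since each group holds 3 libraries.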

How the results depend on the processing

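Without FAC, the count of subunit genes lower after BafA1 was 42 and lay between 39 (quantile normalization) and 43 (separate fits), and was 42 without any single library. The count higher was 0, but 1 with median-of-ratios scaling, 3 with quantile normalization and 0 to 1 when single libraries were left out. The count lower after BafA1 with FAC was 20, but 9 with quantile normalization, 11 without a minimum, 12 without the trend and 10 to 20 when single libraries were left out. The interaction was above 0 for 39 to 40 without single libraries, for 37 with median-of-ratios scaling and for 36 with quantile normalization, where 1 gene was below 0. FAC+BafA1 was lower than BafA1 for 1 gene with median-of-ratios scaling and 1 with quantile normalization, and higher than control for 1 with quantile normalization. Leaving out single libraries gave 0 to 1 genes higher and 0 to 2 lower in FAC than in control, and 18 to 25 lower in FAC+BafA1 than in control, a count of 21 that was 14 with quantile normalization. That normalization also moved the median change of the 44 genes to -0.43 (BafA1 with control), -0.05 (FAC+BafA1 with FAC) and -0.06 (FAC+BafA1 with control), from -0.54, -0.12 and -0.12. The median interaction moved to 0.33 from 0.43, and the median of FAC+BafA1 with BafA1 moved to 0.35 from 0.46. With quantile normalization CYCS turned to 0.13 for BafA1 with control, -0.15 for the interaction and -0.17 for FAC+BafA1 with BafA1. The cause of these shifts was not tested. Libraries with the same replicate number shared little deviation from their group means. The correlation of deviations exceeded 0.1 in 1 of 18 same-number pairs (-0.074 to 0.138), and 5 of 12 libraries matched their own number best. That does not exclude pairing by culture or day, on which the labels are silent. With a replicate block, 42 genes were lower after BafA1 without FAC, 20 with FAC, 39 had an interaction above 0, and FAC+BafA1 was higher than BafA1 for 41 and lower than control for 22. FPKM hold no counts, so depth limits are known only by estimate.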
